A study of Mus musculus with 10 samples.

Results

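Collagen genes were followed in 10 spontaneous mouse lymphomas. They were taken as all non-control probes whose gene name on the array is Col, digits, a and digits. The rule reads names and no measured values, but it was chosen with earlier results of these data known. The rule found 80 of 41174 probes, which stand for 41 collagen genes. One of them, listed on the array as Col29a1, is now named Col6a5. Col6a4, Col6a6 and Col26a1 are on the array under older names that the rule does not take, and were not used here.

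The tumours came from 5 mice heterozygous for the LIP isoform of the transcription factor C/EBPβ (+/L) and from 5 mice with both wild-type alleles (+/+). Each tumour was read on 1 single-colour array of 60-base probes. LIP is the short isoform, which lacks the activating part of the protein. The +/L mice were killed at 18 ± 4.06 months and the +/+ mice at 24.9 ± 3.47 months (SD, n = 5 each), so the genotypes also differ in age. By their labels 4 +/L mice were female and 1 was male, and 3 +/+ mice were female and 2 were male. Strain, organ and lymphoma class are not given in the sources used here. RNA was made from whole tumour pieces, in which fewer cells of a type and less RNA per cell cannot be told apart. The mice carry separate numbers, and n is the number of mice.

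Collagens are secreted or membrane proteins of 3 chains wound into a triple helix, in which glycine returns in a Gly-X-Y repeat. Fibrillar collagens form the tough fibres that fibroblasts lay down, type IV collagens form the meshwork of basement membranes under endothelium and around smooth muscle, and other classes decorate, anchor or bridge these structures. In lymphoid tissue collagen fibres sheathed by reticular fibroblasts form the conduit network.

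Values are log2 processed signals relative to the array's 75th percentile. Between 48.0% and 66.7% of an array's spots were well above background, and the 75th percentile of linear intensity averaged 434 ± 129 over +/L arrays and 288 ± 61.1 over +/+ arrays (SD, n = 5 each). Arrays lay on 3 slides by the file headers, and the description labels put mice 866 and 17 on another slide. The mice labelled male with numbers 20 (+/L) and 11 (+/+) had female-like sex-linked transcripts, so 2 of 10 arrays go against their sex label. The dim end was highest on the arrays of +/L mice 23 and 20, where probes never well above background on any array had medians of -5.54 and -5.64, and it was -7.99 to -6.39 on the other 8 arrays. Markers of B cells and of T cells were all kept, with summed linear levels of 43.1 to 272 in +/L and 156 to 243 in +/+ tumours for 5 B-cell genes.

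A few probe sequences show what the arrays can read in this family. The first set holds the helix repeat itself. Glycine codons begin with GG, so a stretch coding for Gly-X-Y triplets has GG every 9 bases. The search asked for GGNNNNNNN repeated without a break along the whole probe, on the printed strand alone, and found 3 of the 41174 probes, all of them collagens. Capitals mark these GG pairs. All 3 sequences are in mm9 coordinates as the files give them, and each spans more than 60 bases of the genome, so it crosses at least 1 intron.
Col5a1 A_52_P237371, chr2:27842243-27844666, plus strand: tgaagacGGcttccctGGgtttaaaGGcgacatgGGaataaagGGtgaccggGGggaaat
Col5a3 A_52_P503796, chr9:20590066-20590795, minus strand: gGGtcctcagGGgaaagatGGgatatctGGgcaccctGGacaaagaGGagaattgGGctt
Col11a2 A_52_P563285, chr17:34189287-34189453, plus strand: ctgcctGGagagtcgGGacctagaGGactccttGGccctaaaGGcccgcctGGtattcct

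The second set is a pair of Col2a1 probes from the same stretch of the gene, shown because they gave opposite differences between the genotypes. They share 40 of 60 bases, which are in capitals.
Col2a1 A_52_P216436, chr15:97806505-97806564, minus strand: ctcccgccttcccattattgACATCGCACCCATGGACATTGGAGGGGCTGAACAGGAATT
Col2a1 A_51_P317141, chr15:97806485-97806544, minus strand: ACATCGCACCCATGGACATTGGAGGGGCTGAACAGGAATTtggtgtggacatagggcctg

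The third set belongs to the type IV pair and to Col6a5, genes that the results below turn on. The Col4a1 and Col6a5 probes are those whose values are given, while the Col4a2 probe shown is the dimmer of its pair and gives a second reading of that gene. No base is marked in them.
Col4a1 A_52_P518827, chr8:11199846-11201680, minus strand: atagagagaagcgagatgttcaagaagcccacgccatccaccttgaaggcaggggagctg
Col4a2 A_52_P496142, chr8:11448180-11448239, plus strand: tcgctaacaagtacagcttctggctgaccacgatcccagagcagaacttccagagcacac
Col6a5 A_52_P387884, chr9:105765145-105766504, minus strand: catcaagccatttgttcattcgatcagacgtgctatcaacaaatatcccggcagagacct

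The first question is which collagens the tumours held at a measurable level. At least 1 probe of 22 genes was well above background on all 10 arrays, 11 more genes reached it on 3 to 9 arrays, 3 on 1 or 2 arrays and 5 on none. A gene was kept for testing when a probe was well above background on at least 3 arrays, which left 33 genes and 48 probes. The brightest kept probe stood for its gene. The 8 genes left out are Col4a3, Col4a5, Col10a1, Col19a1 and Col28a1, at background on every array, and Col8a2, Col9a1 and Col25a1. Col4a3 and Col4a5 are chains of the kidney and lung basement membranes, and Col10a1 is the collagen of hypertrophic cartilage. Col8a2 was well above background in 2 +/L and 0 +/+ tumours, Col9a1 in 1 of each, and Col25a1 in 0 +/L and 2 +/+ tumours.

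Collagens varied more between tumours than most genes. The median SD over the 10 tumours was 0.857 for the 33 kept collagens, against 0.561 for all 17775 genes tested. Among genes well above background on all 10 arrays it was 0.714 for 22 collagens, against 0.451 for 12747 genes. The widest spread was in Col6a5, at an SD of 3.30, and the narrowest in Col9a2, a chain of a cartilage fibril-associated collagen, at 0.394.

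**Figure D1:**
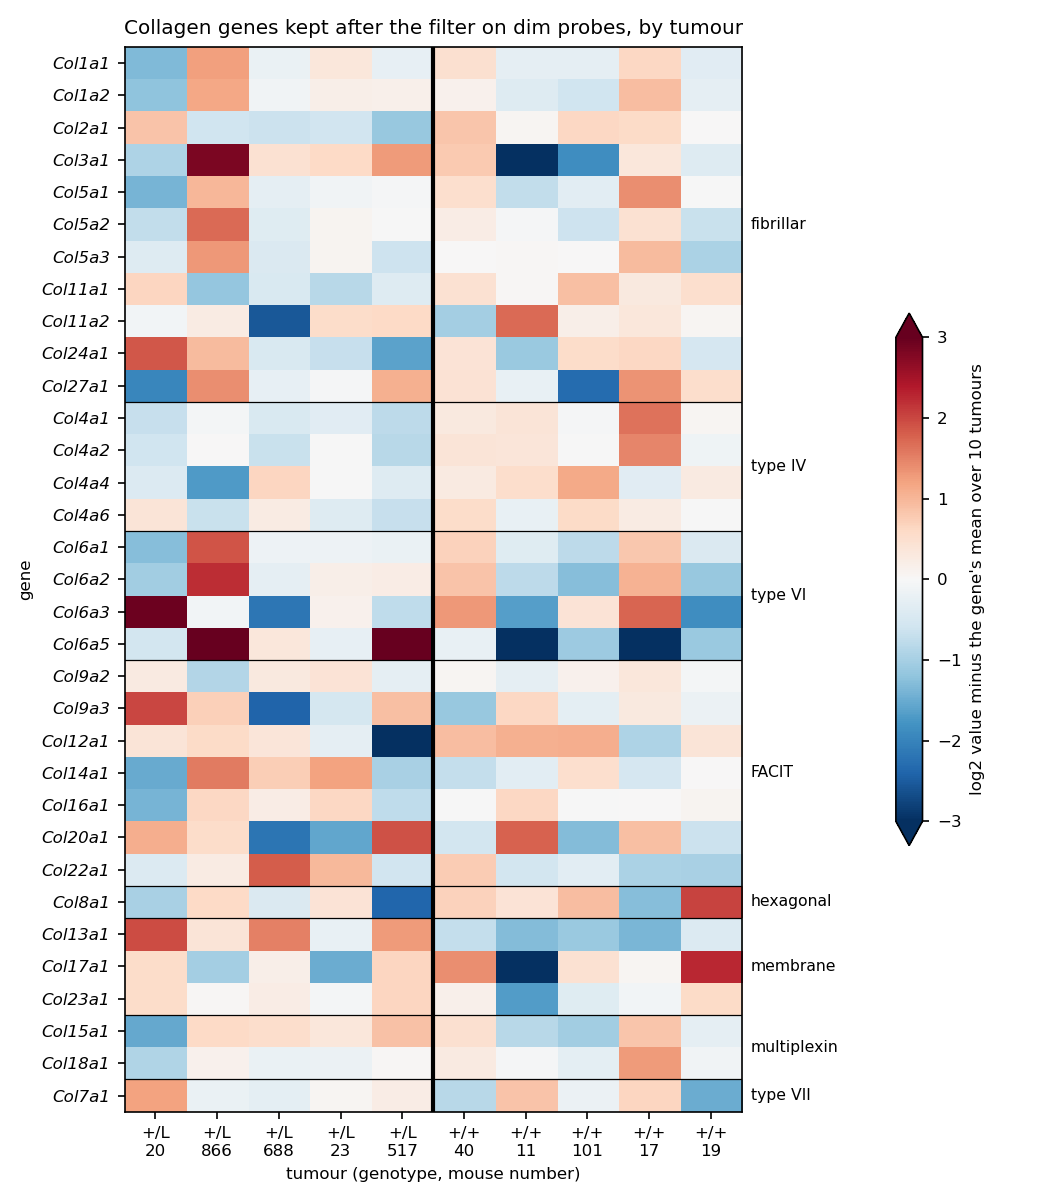
Each cell is the log2 value of a collagen gene in a tumour minus that gene's mean over the 10 tumours, with +/L tumours left of the black line, +/+ tumours right of it, and genes grouped by class. The column of +/L mouse 866 is red for Col1a1, Col1a2, Col3a1, Col6a1 and Col6a2, and all 4 type IV genes are mostly blue in +/L tumours.

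No collagen passed the test between genotypes. With limma and Benjamini-Hochberg adjustment over all genes, 0 of 33 collagens had an adjusted p under 0.05 (0% of the 17775 genes did), and the smallest was 0.469. At an unadjusted p under 0.05, 6 of 33 collagens (18.2%) differed, against 8.58% of all genes. Col13a1 and Col6a5 were higher in +/L tumours (2 of 33, background 3.14%), and Col4a1, Col4a2, Col11a1 and Col2a1 were lower (4 of 33, background 5.44%). The +/L and +/+ values did not overlap in 2 of 33 collagens, Col13a1 and Col4a1, against 1.80% of all genes. Col13a1 passed the filter through +/L tumours alone. Among the 32 collagens whose probe was well above background in both genotypes, 5 had an unadjusted p under 0.05 (15.6%, against 8.34% of 17664 such genes) and 1 did not overlap (against 1.73%). The non-overlap count of 2 was 4 without +/L mouse 20, with Col2a1 and Col11a1 added, and the share of all genes was then 5.04%. It was 1 with median scaling, and 0 with normexp and quantile normalization or in the deposited value table. The count of 6 was 3 in that table (9.09%, against 9.46% of all genes) and 1 with the slide of the description labels as a block (3.03%, against 3.76%), shares near those of all genes. Among the 22 collagens well above background on all arrays, 3 had an unadjusted p under 0.05 (13.6%), against 8.95% of 12747 such genes. Of the 33 collagens 16 averaged higher and 17 lower in +/L tumours, and 48.1% of all genes averaged higher. Other scalings gave 15 to 17 higher. The median difference was -0.02, and it was -0.02 over all genes as well.

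**Figure D2:**
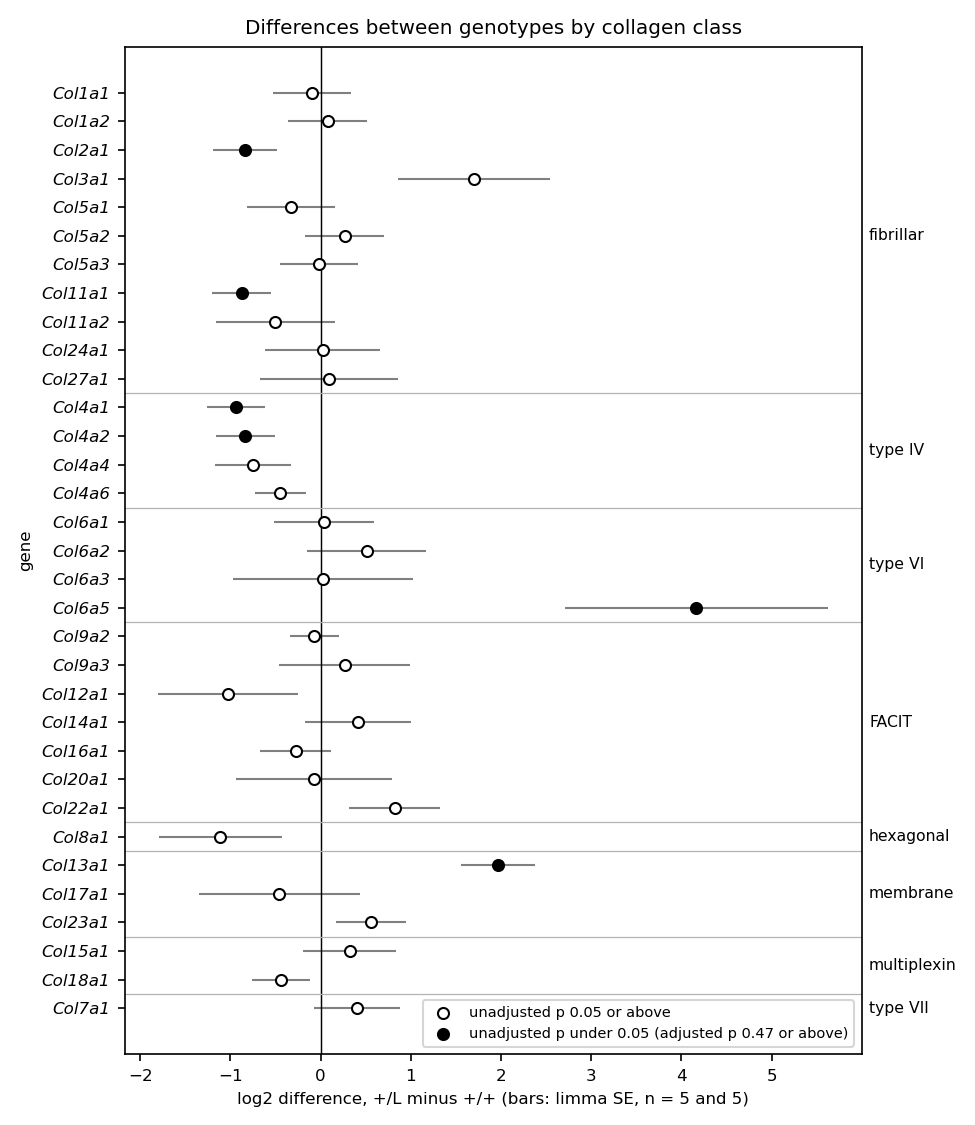
Points are log2 differences of collagen genes, +/L minus +/+, with limma standard errors (n = 5 and 5 tumours), grouped by class. Filled points have an unadjusted p under 0.05. All 4 type IV genes lie below 0, between -0.94 and -0.45, and Col6a5 lies farthest out, at 4.17.

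In the sentences that follow, 5 values are given for each genotype, always for +/L mice 20, 866, 688, 23 and 517 and for +/+ mice 40, 11, 101, 17 and 19, in that order.

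All 11 fibrillar genes were kept. Their median difference was -0.02, with 5 higher and 6 lower. Of the 11, 2 had an unadjusted p under 0.05 in limma (18.2%, against 8.58% of all genes). These were Col11a1 and Col2a1, and the overlapping probes of Col2a1 gave opposite differences. The directions of Col1a1, Col5a3, Col24a1 and Col27a1 turned under at least 1 other scaling, so they carry no direction. Type I collagen, the main collagen of connective tissue fibres, was bright in every tumour. Col1a1, its first chain, had 1.61, 4.17, 2.75, 3.28 and 2.70 in +/L tumours, against 3.42, 2.68, 2.68, 3.57 and 2.61 in +/+ tumours. Col1a2, its second chain, had 3.47, 5.84, 4.57, 4.85 and 4.83 in +/L tumours, against 4.81, 4.29, 4.08, 5.60 and 4.41 in +/+ tumours. The lowest and the highest tumour of each chain were both +/L, mouse 20 and mouse 866, and the genotypes overlapped. The log2 difference was -0.09 ± 0.43 for Col1a1 and 0.08 ± 0.43 for Col1a2 (limma SE, n = 5 each, adjusted p 0.96 and 0.97).

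Col3a1, the fibrillar collagen of reticular fibres, had 1.17, 4.91, 2.56, 2.70 and 3.37 in +/L tumours, against 2.88, -0.99, 0.23, 2.42 and 1.70 in +/+ tumours. These values span 59.9-fold, the widest range of a fibrillar gene. Mouse 866 was the highest and +/+ mice 11 and 101 the lowest, and the genotypes overlapped. The difference was 1.70 ± 0.84 (limma SE, unadjusted p 0.070, adjusted p 0.61). Within slides it was -0.78, 4.02 and 3.95, and with age as a covariate it was -0.38. A dimmer Col3a1 probe gave 1.52.

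Type V and type XI chains sit inside type I and type II fibrils and set their width. Col5a1 averaged 0.78 ± 0.86 in +/L and 1.11 ± 0.83 in +/+ tumours (± SD, 5 mice each). It ranged over -0.46 to 1.95 in +/L and 0.20 to 2.35 in +/+ tumours. Col5a2 averaged -0.88 ± 0.93 in +/L tumours and -1.14 ± 0.50 in +/+ tumours, and mouse 866 was again the highest, at 0.68. Col5a3 averaged -0.30 ± 0.78 in +/L and -0.28 ± 0.67 in +/+ tumours. None of the 3 had an unadjusted p under 0.5 in limma.

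Col11a1, the first chain of type XI collagen, had -3.57, -5.39, -4.68, -5.04 and -4.61 in +/L tumours, against -3.77, -4.19, -3.32, -3.93 and -3.72 in +/+ tumours. All +/L tumours but mouse 20 lay below all +/+ tumours. The difference was -0.87 ± 0.33 (limma SE, unadjusted p 0.023, adjusted p 0.56). It shrank to -0.27 with normexp and quantile normalization and to -0.17 in the deposited value table. The gene was well above background on 9 arrays. Col11a2, the second type XI chain, averaged -1.86 ± 1.31 in +/L and -1.36 ± 0.97 in +/+ tumours, with +/L mouse 688 at -4.16.

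Col2a1, the collagen of cartilage, was read by an overlapping pair of probes. Its brighter probe on average had -1.03, -2.50, -2.55, -2.47 and -3.02 in +/L tumours, against -1.07, -1.84, -1.27, -1.31 and -1.89 in +/+ tumours, a difference of -0.84 ± 0.36 (limma SE, unadjusted p 0.041, adjusted p 0.57). All +/L tumours but mouse 20 lay below all +/+ tumours. The probe that shares 40 of its bases had -0.81, -0.42, -3.09, -2.60 and -1.78 in +/L tumours, against -2.42, -4.98, -3.88, -2.79 and -3.32 in +/+ tumours. Its difference was 1.74 ± 0.61 (limma over 26410 probes, unadjusted p 0.017, adjusted p 0.59). The pair thus gave opposite differences from a stretch of 80 bases, and the mean of both probes gave 0.45, so no direction is given for Col2a1. A further Col2a1 probe was at background on every array.

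The remaining fibrillar genes were dim. Col24a1 averaged -5.15 ± 1.39 in +/L and -5.18 ± 0.77 in +/+ tumours, and was well above background in 3 and 2 of them. Col27a1, a fibrillar collagen of cartilage, averaged -3.54 ± 1.32 in +/L and -3.63 ± 1.39 in +/+ tumours. Neither gene differed beyond its spread.

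The probes of the helix repeat printed above belong to Col5a1, Col5a3 and Col11a2 and are the dimmer probes of those genes. In +/L mouse 20 they had -0.99, -1.14 and -1.55. On the other 9 arrays their highest value was -3.18 and their lowest was -6.95. The brighter probes of the same genes were not raised in mouse 20: Col5a1 had its lowest value there, at -0.46. Only this array showed it. The array of +/L mouse 23, whose dim end was slightly higher, had -3.86, -5.52 and -5.46 for the same probes. A second Col13a1 probe, left out as too dim, had -1.80 in mouse 20 and -7.08 to -5.29 on the other 9 arrays. Some dim probes without the unbroken repeat were also far highest in mouse 20. Examples are a dimmer Col23a1 probe (-1.39, against -7.34 to -4.49 on the other arrays) and the Col9a1 probe (-2.47, against -7.24 to -5.03). The rise was thus not particular to the helix repeat. Other dim probes, such as that of Col28a1 (-6.01), did not show it.

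**Figure D3:**
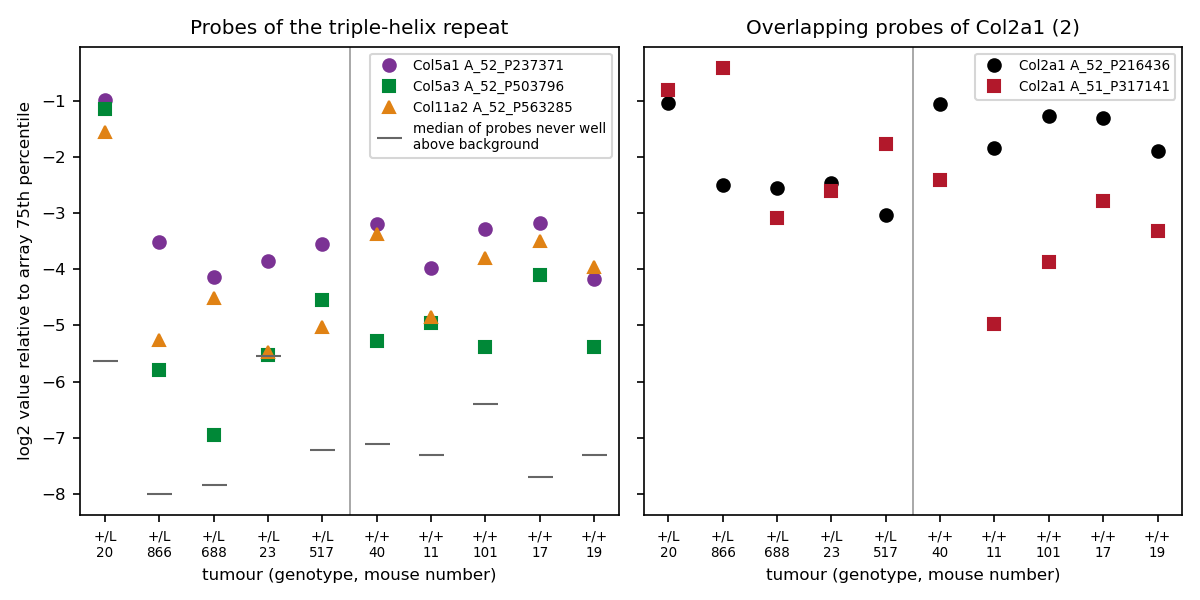
Left, log2 values by tumour of the 3 probes whose sequence is the helix repeat, with a bar at each array's median over probes never well above background. Right, the overlapping pair of Col2a1 probes. In +/L mouse 20 the helix-repeat probes sit between -1.55 and -0.99, above all their values on the other 9 arrays. Some dim probes without the unbroken repeat, not shown, were also highest there.

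All type IV genes that could be measured averaged lower in +/L tumours. Type IV collagen is the network of basement membranes, and its common form pairs Col4a1 with Col4a2. The array holds 6 type IV genes, 4 were kept, and all 4 were lower, with a median of -0.79 against -0.02 over all genes. This count includes Col4a4, whose only kept probe has mm9 coordinates that cover 29 bases. The count of 4 lower held under each of the other scalings and with slide as a block, and 3 of 4 were lower with age as a covariate. None passed the adjusted threshold, so these are differences in the mean of 5 tumours a group.

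Col4a1 had 1.68, 2.30, 1.91, 2.02 and 1.59 in +/L tumours, against 2.67, 2.77, 2.32, 4.01 and 2.42 in +/+ tumours. The genotypes did not overlap, but narrowly, with +/L mouse 866 at 2.30 and +/+ mouse 101 at 2.32. The difference was -0.94 ± 0.32, that is 1.91-fold lower in +/L tumours (limma SE, unadjusted p 0.015, adjusted p 0.54). An exact two-sided permutation test gave 0.0079, the smallest p that 5 against 5 tumours allow. Any gene whose groups do not overlap gets this p, so it adds nothing to that observation. Over all alternatives the adjusted p lay between 0.34 and 0.999. Within slides it was -1.54, -0.96 and -0.07, and without +/+ mouse 17, the highest tumour, it was -0.64. The second Col4a1 probe gave -0.64.

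Col4a2 had 1.75, 2.36, 1.68, 2.33 and 1.50 in +/L tumours, against 2.73, 2.71, 2.33, 3.81 and 2.21 in +/+ tumours. It followed Col4a1, with mouse 17 highest and mouse 517 lowest, but the genotypes overlapped. The difference was -0.84 ± 0.33 (1.79-fold lower, limma SE, unadjusted p 0.027, adjusted p 0.56). Within slides it was -1.55, -0.80 and 0.09, and the probe printed above gave -0.94. Both genes were lower on slides 1 and 2 and near 0 on slide 3, which held 1 +/L and 2 +/+ arrays.

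Col4a4 and Col4a6 belong to the chains of specialised basement membranes. Col4a4 had 0.89, -0.40, 1.94, 1.30 and 0.93 in +/L tumours, against 1.58, 1.84, 2.45, 0.97 and 1.57 in +/+ tumours, a difference of -0.75 ± 0.42 (limma SE, unadjusted p 0.11). With age as a covariate its difference was 0.18. Col4a6 averaged -2.18 ± 0.51 in +/L and -1.74 ± 0.35 in +/+ tumours (± SD, 5 mice each), a difference of -0.45 ± 0.28 (limma SE, unadjusted p 0.14). Their usual partners Col4a3 and Col4a5 were at background on every array. Col4a4 and Col4a6 each rest on 1 kept probe. A further Col4a4 probe was at background on every array, and further Col4a6 probes were well above background on 1 and 0 arrays.

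Smooth muscle and pericytes are among the cells that make type IV collagen, and their markers were lower in sum in the same tumours. The summed linear level was 33.4 to 62.8 in +/L tumours, against 73.3 to 116 in +/+ tumours, and the ranges did not overlap. All 10 were kept, 4 averaged higher and 6 lower in +/L tumours, and the smooth muscle genes Actg2 (-1.61), Acta2 (-1.44) and Tagln (-1.12) had unadjusted p of 0.00066, 0.0013 and 0.0041 (limma, adjusted p 0.47, 0.53 and 0.54). Cnn1, a dimmer smooth muscle gene, went the other way, at 2.90 (limma, unadjusted p 0.033, adjusted p 0.57). The remaining markers were Des (-0.73), Cspg4 (-0.20), Notch3 (-0.06), Mylk (0.07), Myh11 (0.14) and Rgs5 (0.57). In +/+ tumours Acta2, Tagln and Actg2 had the highest means of the list (5.28, 4.60 and 3.78), so they weigh most in the linear sum. Endothelial markers, the other main source, summed to 27.6 to 45.5 in +/L and 13.8 to 52.4 in +/+ tumours, with 8 of 10 higher in +/L. The part of these cells in the type IV difference was not tested.

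**Figure D4:**
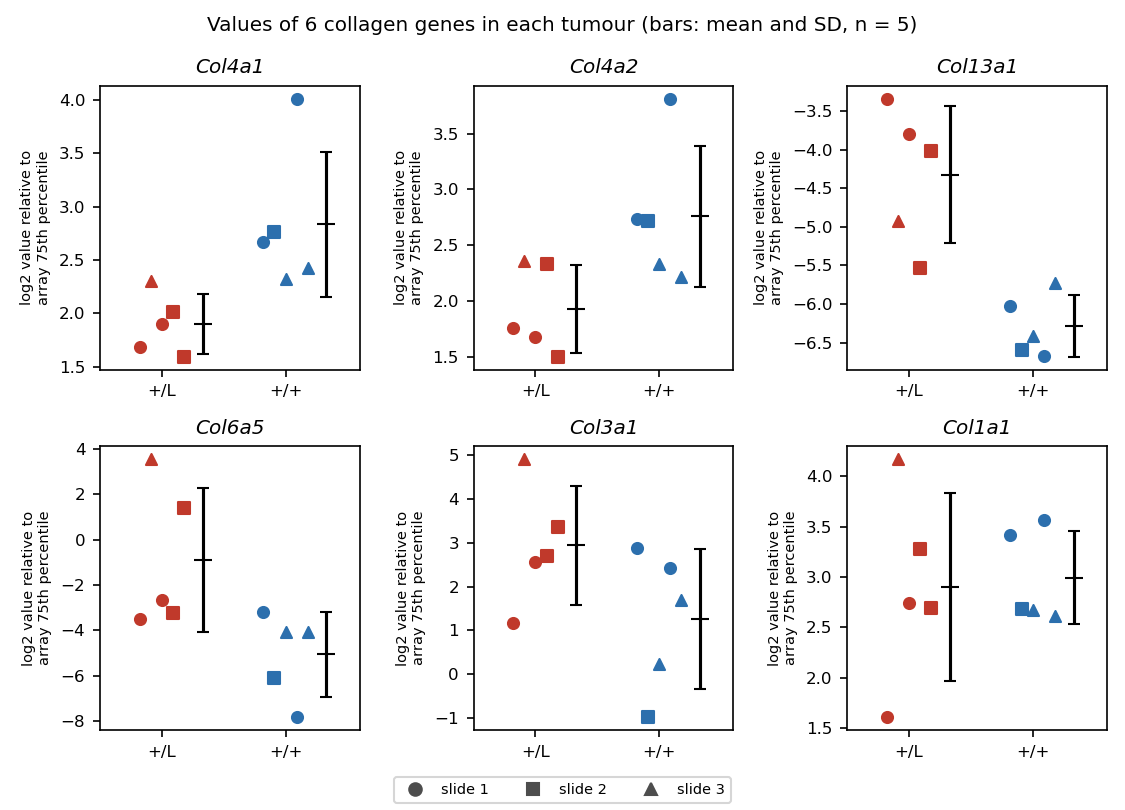
Each panel plots the log2 values of a collagen gene in the 5 +/L and 5 +/+ tumours, with the symbol giving the slide and the black bar the mean and SD. Col4a1 separates the genotypes narrowly, Col6a5 is spread over the widest range, and Col1a1 overlaps fully.

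Type VI collagen forms beaded filaments around cells. Col6a1 had -0.15, 3.01, 0.98, 0.97 and 0.92 in +/L tumours, against 1.82, 0.75, 0.33, 1.93 and 0.70 in +/+ tumours. Col6a2 had -1.33, 1.93, -0.56, -0.11 and -0.05 in +/L tumours, against 0.58, -1.06, -1.55, 0.76 and -1.41 in +/+ tumours. Mouse 866 was the highest for both chains and the genotypes overlapped. The differences were 0.04 ± 0.55 and 0.51 ± 0.66 (limma SE, adjusted p 0.99 and 0.86). Col6a3, the third chain of the usual trimer, was well above background in 2 tumours of each genotype and differed by 0.03 ± 0.99.

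Col6a5, an additional type VI chain found in skin and lung, had -3.51, 3.55, -2.64, -3.22 and 1.39 in +/L tumours, against -3.18, -6.11, -4.06, -7.82 and -4.07 in +/+ tumours. It was well above background in 5 of 5 +/L and 3 of 5 +/+ tumours. Mice 866 and 517 stood far above the other 8 tumours, and the remaining +/L tumours lay in the upper part of the +/+ range or just above it. The difference was 4.17 ± 1.46 (limma SE, unadjusted p 0.017, adjusted p 0.54), and 7.62, 5.19 and 2.43 within slides 3, 2 and 1. It was 2.09 with normexp and quantile normalization, 1.84 in the deposited value table and 2.47 with age as a covariate. Without mouse 866 it was 3.06.

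Of 9 fibril-associated genes 7 were kept and none had an unadjusted p under 0.05 with limma. Their median was -0.07, with 3 higher and 4 lower. Col22a1, a collagen of tissue junctions, had the lowest unadjusted p, 0.13, at a difference of 0.82 ± 0.50. Col20a1 had the largest SD over the 10 tumours, 1.45, and averaged -2.26 ± 1.77 in +/L and -2.18 ± 1.26 in +/+ tumours (± SD, 5 mice each). Col12a1, which binds fibrils in dense connective tissue, was at -7.57 in +/L mouse 517 and between -4.90 and -2.89 in the other 9 tumours. Col14a1, which sits on the surface of type I fibrils, was highest in +/L mouse 866 (2.10) and lowest in +/L mouse 20 (-0.97).

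Among the membrane-spanning collagens 3 of 4 were kept. Col13a1, a transmembrane collagen of cell junctions, had -3.34, -4.92, -3.80, -5.53 and -4.02 in +/L tumours, against -6.02, -6.59, -6.41, -6.67 and -5.73 in +/+ tumours. All +/L tumours lay above all +/+ tumours. This probe was well above background in 4 of 5 +/L and 0 of 5 +/+ tumours, so it passed the filter through +/L tumours alone and its difference is a description. That difference was 1.96 ± 0.41 (limma SE, adjusted p 0.47). A second Col13a1 probe, well above background in 1 tumour of each genotype and not kept, differed by 0.34. Since the +/+ level is only a bound, the ratio taken at that bound was 1.80-fold higher in +/L tumours. It sets the mean of the +/L tumours against the mean, over +/+ arrays, of the higher of the probe's own value and the array's lowest signal well above background. This ratio is not a firm minimum, because +/L mouse 23, at -5.53, also lay below its own array's lowest such signal (-3.67). The +/L measured mean was -4.32 and the +/+ measured mean -6.29. The difference was 2.78, 1.82 and 1.14 within slides 1, 2 and 3, but 0.20 with normexp and quantile normalization and 0.11 in the deposited value table. Over all alternatives the adjusted p lay between 0.21 and 0.999. Col17a1, of hemidesmosomes in skin, had the largest SD of the class, 1.51, and averaged -4.12 ± 0.97 in +/L and -3.66 ± 2.01 in +/+ tumours. Col23a1 averaged -2.26 ± 0.31 in +/L and -2.81 ± 0.86 in +/+ tumours.

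The other classes hold few genes. Col8a1, a short-chain collagen of vessel walls, had -2.09, -0.50, -1.54, -0.70 and -3.49 in +/L tumours, against -0.41, -0.70, -0.18, -2.39 and 0.93 in +/+ tumours. The genotypes overlapped, at a difference of -1.11 ± 0.68 (limma SE, unadjusted p 0.13). Col15a1 and Col18a1 are basement-membrane-zone collagens whose ends release the fragment endostatin (Col18a1) or its relative. Col15a1 averaged -0.69 ± 0.96 in +/L and -1.02 ± 0.81 in +/+ tumours. Col18a1 averaged 1.46 ± 0.41 in +/L and 1.90 ± 0.62 in +/+ tumours (± SD, 5 mice each), with +/+ mouse 17 highest at 2.95. Col7a1, the anchoring fibril collagen, averaged 0.35 ± 0.60 in +/L and -0.05 ± 0.98 in +/+ tumours.

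Age entered as a covariate moved the fibrillar, type VI and multiplexin classes downward in +/L tumours. With it, 9 of 33 collagens averaged higher and 24 lower in +/L tumours, all 11 fibrillar genes were lower, and the fibrillar median was -0.69, against 0.06 over all genes. Of 4 type VI genes 3 were lower, and 2 of 2 multiplexins. Of 7 fibril-associated genes 4 were higher, against 3 without age, and 1 of 4 type IV genes was higher, against 0. Counts in the other classes did not change. Col5a1 was then at -1.62 (unadjusted p 0.0046), Col4a1 at -1.54 (0.0032) and Col18a1 at -1.06 (0.024), while 0 of 33 passed after Benjamini-Hochberg adjustment in limma. With age, 7 of 33 collagens had an unadjusted p under 0.05 (21.2%), against 5.96% of all genes. The youngest tumour, from +/L mouse 866 at 11 months, was also the highest for Col1a1, Col1a2, Col3a1, Col6a1, Col6a2 and Col6a5. The same tumour had the lowest summed B-cell markers (43.1, against 156 to 272 in the others) and the highest summed fibroblast markers (222). The part of age or of cell content in its values was not tested. With 10 tumours and ages that differ between genotypes, age and genotype can be told apart only in part.

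Chains of one trimer or neighbouring genes were compared across the 10 tumours. Of 10 pairs chosen, 7 had both genes kept, and 4 passed after adjustment over these 7. Col1a1 and Col1a2 correlated at r = 0.94 (rho 0.90, permutation p 6e-05, adjusted 0.00016), and r was 0.81 without the 2 tumours farthest from the median of Col1a1. Col6a1 and Col6a2 correlated at r = 0.95 (rho 0.92, permutation p 4e-05, adjusted 0.00016) and at 0.92 without the 2 farthest. Col4a1 and Col4a2, which lie head to head with starts 21 bases apart on opposite strands of chromosome 8 (RefSeq, GRCm38.p6), correlated at r = 0.97 (rho 0.89, permutation p 7e-05, adjusted 0.00016) and at 0.90 without the 2 farthest. Within slides the values were 0.94, 0.97 and 0.97, and within genotypes 0.94, 0.97 and 0.95, in the order the pairs are named. Both values of a tumour come from the same array. Col5a1 and Col5a2 correlated at r = 0.72 (rho 0.76, permutation p 0.018, adjusted 0.032). Without the 2 tumours farthest from the median of Col5a1 its r was 0.77, and it no longer passed (permutation, adjusted p 0.073).

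The other 3 pairs did not pass by Pearson's r. Col1a1 and Col3a1, a pair in mixed fibrils, had r = 0.62 (rho 0.70, permutation p 0.054, adjusted 0.076), and 0.45 without the 2 farthest. Its rho passed (permutation, adjusted p 0.043). Its r also passed with normexp and quantile normalization (0.72, adjusted p 0.029), in the deposited value table (0.71, adjusted p 0.034) and within genotypes (0.79, adjusted p 0.0085). Col1a1 and Col4a1, the fibrillar and the basement membrane leaders, had r = 0.47 (rho 0.27, permutation p 0.17, adjusted 0.19). Col6a1 and Col6a3 had r = -0.01 (rho -0.03), for a Col6a3 probe well above background on only 4 arrays.

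**Figure D5:**
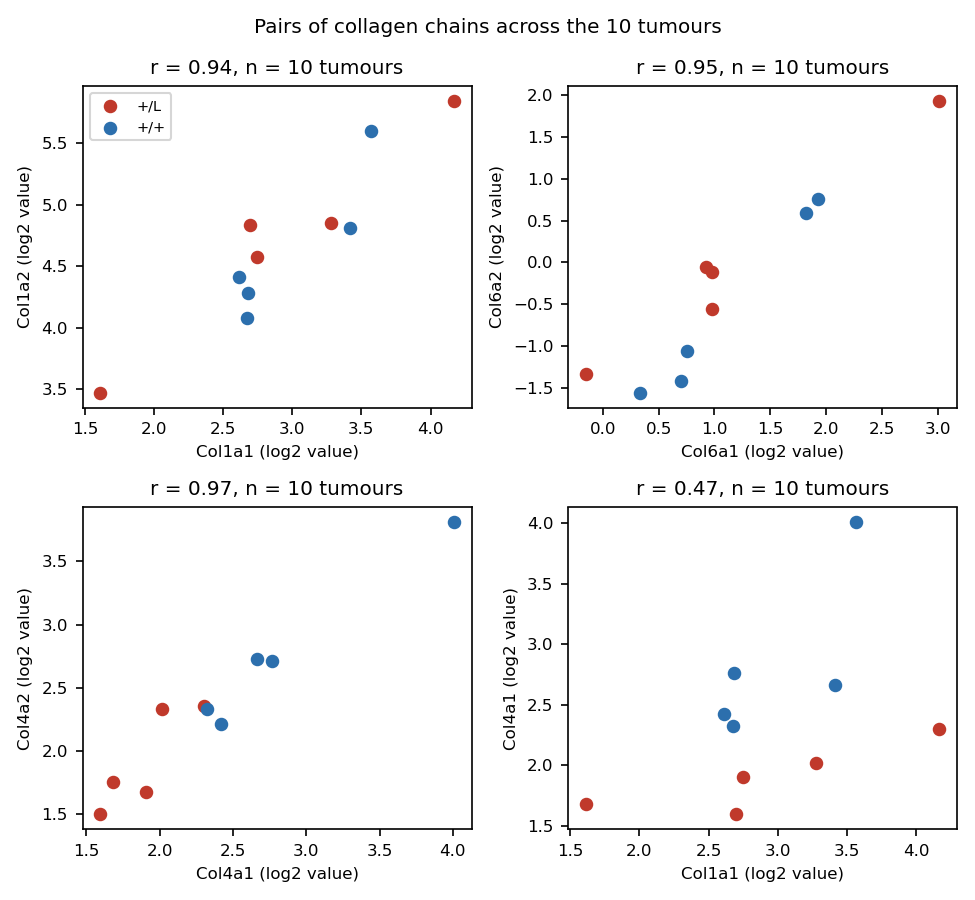
Each point is a tumour, plotted by its log2 values of a pair of collagen genes, with +/L and +/+ in separate colours. The chains of type I, type VI and type IV collagen lie close to a line (r = 0.94, 0.95 and 0.97), and Col1a1 against Col4a1 is scattered (r = 0.47).

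Where a gene had several kept probes, the probes could be set against each other. That was possible for 13 genes, and the probes had the same direction in 8 of them and opposite directions in 5 (Col1a1, Col2a1, Col5a1, Col5a3 and Col27a1). Apart from Col2a1, no kept probe of these 5 had a difference above 0.74 in size.

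Genes that build, cross-link, bind and cleave collagen were counted beside the family, with 0 of them past the adjusted threshold in limma. Enzymes that fold and modify the chains were measured for 16 of 17 genes. Of these 13 averaged lower in +/L tumours, and Plod3, a lysyl hydroxylase, and P4ha1, a prolyl hydroxylase, had unadjusted p under 0.05 (both lower, 12.5%, against 8.58% of all genes). Plod3 had 2.30, 2.99, 2.72, 2.90 and 2.15 in +/L tumours, against 3.69, 3.21, 3.18, 3.36 and 2.84 in +/+ tumours. Its difference was -0.64 ± 0.24 (limma SE, unadjusted p 0.021, adjusted p 0.55), and P4ha1 was at -0.86 (unadjusted p 0.032). The list median was -0.24. With age as a covariate 9 of 16 had an unadjusted p under 0.05 in limma, all lower, against 3.78% of all genes that were lower at that threshold, and 0 passed after adjustment. The most variable member was Colgalt2, a collagen galactosyltransferase, with an SD of 1.12 over the 10 tumours.

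Of 10 measured genes for processing and cross-linking, 5 were higher and 5 lower, and none had an unadjusted p under 0.05. Pcolce2, which speeds procollagen trimming, came closest at 2.30 (unadjusted p 0.057, adjusted p 0.59). Of 8 measured small proteoglycans, which coat collagen fibrils, 6 were higher. Ogn was at 2.93 ± 1.05 (limma SE, unadjusted p 0.019, adjusted p 0.54), and Lum, the most variable, at 2.76 (unadjusted p 0.052). Of the 8 only Ogn had an unadjusted p under 0.05 in limma (12.5%, against 8.58% of all genes). Ogn had -0.11, -1.15, -0.58, -2.34 and -1.12 in +/L tumours, against -1.91, -7.66, -5.54, -2.06 and -2.79 in +/+ tumours. It was well above background in 5 of 5 +/L and 3 of 5 +/+ tumours. The values of +/+ mice 11 and 101 lay below their arrays' lowest signals well above background (-5.34 and -4.31), so the size of the difference is uncertain.

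Of 11 collagen receptors, 5 were higher and 6 lower. Mrc1, an endocytic receptor, was at 2.58 ± 0.99 (limma SE, unadjusted p 0.026, adjusted p 0.56), and it is also a macrophage gene. No other receptor had an unadjusted p under 0.05 in limma (9.09% of the list, against 8.58% of all genes). Of 11 proteases and inhibitors 7 were higher, and none had an unadjusted p under 0.05. Ctsk, which cuts type I collagen, was at 0.76 (unadjusted p 0.093). The most variable was Mmp13, a collagenase, at an SD of 2.51. Of 15 laminins, nidogens and other basement membrane partners, 5 were higher and 10 lower, with a median of -0.06. The type IV genes had a median of -0.79. The most variable was Lama1, a laminin chain, at a difference of -0.30 (limma, unadjusted p 0.77), which turned to 0.10 with normexp and quantile normalization.

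Of 12 other matrix proteins of fibroblasts 10 were higher, with a median of 0.82. Mfap4, of elastic fibres, was at 2.66 ± 0.62 (limma SE, unadjusted p 0.0014, adjusted p 0.54), and Postn, which binds type I collagen, at 2.45 (unadjusted p 0.0498). These 2 of 12 had an unadjusted p under 0.05 in limma (16.7%, against 8.58% of all genes). Neither passed the adjusted threshold, and the type I chains of the same tumours lay at -0.09 and 0.08. The count was 11 of 12 with slide as a block and 5 of 12 with age as a covariate.

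Markers of other tumour stroma were summed as linear levels beside these values. Fibroblast markers (9 of 10 kept) gave 61.3 to 222 in +/L and 38.4 to 176 in +/+ tumours. Dcn and Thy1 had the highest means of this list in both genotypes, so they weigh most in the linear sum. The value of 176 was +/+ mouse 19, which had Thy1 at 6.32 and also the highest T-cell sum. Of the 9 markers 5 averaged higher and 4 lower in +/L tumours. Pi16 (2.22) and Dpt (2.15) had unadjusted p under 0.05 in limma (22.2%, against 8.58% of all genes), and none passed after adjustment. Fibroblastic reticular markers gave 65.0 to 362 in +/L and 44.1 to 328 in +/+ tumours. Adipocyte markers (7 of 8 kept) gave 16.0 to 170 in +/L and 4.04 to 53.1 in +/+ tumours. All 7 averaged higher in +/L tumours, and 4 had an unadjusted p under 0.05 in limma (57.1%, against 8.58% of all genes). Macrophage markers gave 38.8 to 370 in +/L and 265 to 489 in +/+ tumours. Of these 7 markers 6 averaged lower and 1 higher in +/L tumours. C1qa, C1qb and C1qc had unadjusted p under 0.05 in limma (42.9%, against 8.58% of all genes). Values of C1qa and C1qc did not overlap (28.6%, against 1.80% of all genes). No adipocyte or macrophage marker passed after adjustment. T-cell markers gave 10.2 to 82.8 in +/L and 20.7 to 128 in +/+ tumours. Epithelial and mesothelial markers gave 0.869 to 116 in +/L and 0.754 to 1.83 in +/+ tumours, and the value of 116 was mouse 20, the tumour with the lowest Col1a1 and Col1a2. The part of these cells in the collagen values was not tested.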

How the data were processed

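The 10 deposited scanner files hold 1-colour Agilent intensity values extracted by the authors' Agilent software (version 10.5.1.1, per the file headers) on 41174 probes with mm9 coordinates. The deposited value table holds log2 values. How its background was treated is not given in the sources read, and its column medians were 6.96 to 6.97. Members, classes, lists and tests were chosen with earlier results of these data known.

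Processed signals were divided by the array's 75th percentile (non-control spots) and taken to log2. Outlier spots were dropped, spots of a probe averaged and probes kept when well above background on 3 or more of 10 arrays. The brightest probe stood for a gene. Genotypes were compared with limma 3.58.1 (R 4.3.3), Benjamini-Hochberg adjusted over 17775 genes, no covariate. Names were updated through RefSeq. The procedure was tested on simulated data. Named collagens were all kept fibrillar and type IV genes, those with unadjusted p under 0.05, chain-pair genes, and per other class and list the gene of lowest p and of largest SD. One gene that this rule names is not reported here. P4ha1, Acta2, Actg2, Tagln, Cnn1, Col12a1, Col14a1, Col23a1 and Col9a2 were chosen after their values were seen. Alternatives are in the closing section.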

Additional observations from a re-analysis of the deposited data

Results flagged for a closer look

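Dixon's ratio is a tumour's gap to its nearest neighbour divided by the range of the 5 tumours of its genotype. In 4 of 72 groups over 36 named genes this ratio was larger than the 95% critical value (0.71). Chance flags about 1 in 20 groups. Col11a2 in +/L mouse 688 was -4.163, and the other +/L tumours lay between -1.701 and -1.007. Col15a1 in +/L mouse 20 was -2.383, against -0.518 to 0.018. Col2a1 in +/L mouse 20 was -1.034, against -3.025 to -2.465. Col4a1 in +/+ mouse 17 was 4.007, against 2.323 to 2.766. In all 4 cases the probe was well above background on that array.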

How the results depend on the processing

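The number of collagens past the adjusted threshold was 0 in every alternative run. Of 777 combinations of 36 named genes and an alternative, 712 kept their direction and 65 turned it, in 18 genes, and the cause was not tested. Non-overlapping collagens numbered 1 with median scaling, with probes well above background on all arrays and with the mean of all probes, 0 with normexp and quantile normalization and in the value table, and 4 in mice labelled female (12.1%, against 13.9% of all genes) and without the 2 mice against their sex label (against 9.85%). Chosen after seeing the data, a count over genes measured in both genotypes gave 1. They numbered 2 to 4 when 1 mouse was left out, with 4 without mouse 20 (Col2a1 and Col11a1 added, against 5.04% of all genes). Unadjusted calls numbered 3 in the value table and with probes above background on all arrays (22 genes tested, against 10.56% of all such genes). The count was 1 with the slide of the description label as a block, and 4 to 7 when 1 mouse was left out. The share of all genes was then 5.14% (without mouse 101, 4 calls) to 13.02% (without mouse 20, 7 calls). Without mouse 40 the share was 6.31%, also with 7 calls. The fibrillar median was -0.69 and the multiplexin median -0.80 with age, and the FACIT and hexagonal medians were 0.27 each without a filter. When 1 mouse was left out the fibrillar median was -0.35 to 0.18, type IV -0.89 to -0.61, type VI 0.04 to 0.65, FACIT -0.15 to 0.36, hexagonal -1.57 to -0.66, membrane-spanning 0.21 to 0.77, multiplexin -0.23 to 0.24 and Col7a1 0.08 to 0.67. Unadjusted calls among the 83 genes of the pathway lists numbered 6, and 18 with age. The shares of all genes were 8.58%, and 5.96% with age. With age, the differences turned to -0.99 (Col1a2), -0.38 (Col3a1), 0.18 (Col4a4), -0.69 (Col5a2), -0.55 (Col15a1), 0.014 (Col20a1), -0.64 (Col24a1), -1.44 (Col27a1), -0.22 (Colgalt2), -0.21 (Ctsk) and -0.53 (Mmp13). With normexp and quantile normalization they turned to 0.076 (Col1a1), -0.029 (Col24a1), -0.064 (Col27a1) and 0.10 (Lama1), and in the value table to 0.056, -0.017, -0.036 and 0.10 for these genes and 0.00072 for Col5a3. The mean of all probes gave 0.27 (Col1a1), 0.45 (Col2a1), 0.011 (Col5a1) and 0.10 (Col5a3). Median scaling gave Col5a3 0.019, and slide by headers 0.041. Slide by label gave Col17a1 0.44, Col27a1 -0.023 and Lama1 0.94. In mice labelled female Col1a1 was 0.022, Col5a3 0.086, Col24a1 -0.63 and Col27a1 -0.22. Without the 2 mice against their sex label Col1a1 was 0.15, Col5a3 0.083, Col20a1 0.075 and Col24a1 -0.72. With 1 mouse left out, ranges that crossed 0 were -0.41 to 0.23 (Col1a1), -0.21 to 0.39 (Col1a2), -0.13 to 0.48 (Col5a2), -0.35 to 0.22 (Col5a3), -0.82 to 0.072 (Col11a2), -1.27 to 0.051 (Col17a1), -0.56 to 0.47 (Col20a1), -0.45 to 0.43 (Col24a1), -0.48 to 0.59 (Col27a1), -1.19 to 0.17 (Lama1) and -0.020 to 2.23 (Mmp13). Col6a1 and Col6a3 had r = 0.019 with median scaling and 0.64 without the 2 farthest tumours. Signal over background limits Col13a1, Col24a1, Col6a3 and the other genes below it on some arrays.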
